A study of Mus musculus with 4 samples.

Results

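Pre-mRNA is spliced by the spliceosome, and which exons it joins is set largely by proteins that bind the transcript. The genes described here encode such proteins: the SR proteins (Srsf genes) and the Tra2 proteins, which mostly promote exon inclusion, the Hnrnp proteins, which package nascent transcripts and often block splice sites, the Sf3 subunits of the U2 particle, which recognise the branch point, the Rbm genes, a group named only for an RNA-binding motif, and the Rbfox, Nova, Celf, Elavl, Mbnl and Ptbp families, which set tissue-specific and neuronal splicing or the stability of neuronal transcripts. They were taken from the deposited gene count table by symbol, with at least 10 counts summed over the 4 libraries. Of 24015 genes in the table, 96 were members. The pattern matched 98 symbols besides Rbm31y, which the rule leaves out, and Rbm44 (4 counts in all) and Mbnl3 (9 counts) lay below the minimum. Just above it, Rbm46 (27 counts) was too low to be tested, and Rbm4 (56 counts) was the lowest tested member, so that 95 of the 96 were tested among 15117 genes.

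The series addresses what heterozygous loss of Arid1b, a subunit gene of the nucleosome remodelling complex BAF, does to transcription in the adult mouse cerebellum. The groups were heterozygous Arid1b knockout mice and their wild type littermates, all C57BL/6N and 140 to 150 days old, with 1 male and 1 female library of each genotype. The making of the knockout allele is not described in these sources, and no other allele, Cre or treatment is named for either group. Total counts were between 15950899 and 20616219 per library, all 4 libraries shared a sequencing lane, and no 2 of them share both genotype and sex, so none can share an animal with another. Whether a library holds 1 animal or a pool is not stated. Arid1b was at 52.9 and 55.8 CPM (the count divided by the library total and multiplied by 1000000) in the male and female heterozygotes against 69.9 and 71.0 CPM in the wild types. Its log2 fold change was -0.37 ± 0.11 (± is the standard error of the fit wherever a log2 fold change is given), which did not pass the test (edgeR quasi-likelihood test, Benjamini-Hochberg adjusted p = 0.243). Reads of the whole gene are counted, so this level does not show the deletion. All 15 granule cell genes and all 15 Purkinje cell genes of the marker lists were present at testable levels. So were all genes of the other marker lists, among them 11 brainstem neuron and 10 choroid plexus genes. Their presence therefore does not check the tissue label.

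The cerebellum is dominated by granule cells, small excitatory neurons, beside the large inhibitory Purkinje cells. Rbfox3, for one, is the antigen NeuN, which marks granule cells and is absent from Purkinje cells. SR protein and many Hnrnp genes control their own level by splicing in or out an exon with a stop codon, so that part of their transcripts is destroyed by nonsense-mediated decay. Gene-level counts add the productive and the decayed forms together.

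The start regions of 4 SR and Tra2 genes that were lower in both heterozygotes are shown, with that of Sf3a1, the member whose genotype difference had the largest p, beside them. This choice was made after the values were seen. Each line gives the 250 bases before the gene's RefSeq start (build GRCm38.p6), 5′ to 3′ on the gene's strand. Capitals mark every match, on either strand, of 6 letter strings: the GC box GGGCGG, the CCAAT box CCAAT, the ETS core CCGGAAG, the core of the cAMP response element TGACG, the TATA box TATAAA and the E-box CACGTG.
Srsf1, chr11:88047123-88047372, plus strand: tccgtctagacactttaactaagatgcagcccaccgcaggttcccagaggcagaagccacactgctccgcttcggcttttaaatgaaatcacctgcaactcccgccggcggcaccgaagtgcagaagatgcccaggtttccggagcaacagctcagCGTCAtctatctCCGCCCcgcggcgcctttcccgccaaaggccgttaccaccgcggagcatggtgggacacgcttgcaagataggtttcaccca
Srsf3, chr17:29032410-29032659, plus strand: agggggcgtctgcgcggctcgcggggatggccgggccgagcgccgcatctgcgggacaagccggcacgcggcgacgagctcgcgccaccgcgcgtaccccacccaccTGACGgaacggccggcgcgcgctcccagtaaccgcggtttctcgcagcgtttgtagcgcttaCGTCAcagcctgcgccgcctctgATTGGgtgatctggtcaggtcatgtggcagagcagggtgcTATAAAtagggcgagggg
Srsf7, chr17:80207306-80207555, minus strand: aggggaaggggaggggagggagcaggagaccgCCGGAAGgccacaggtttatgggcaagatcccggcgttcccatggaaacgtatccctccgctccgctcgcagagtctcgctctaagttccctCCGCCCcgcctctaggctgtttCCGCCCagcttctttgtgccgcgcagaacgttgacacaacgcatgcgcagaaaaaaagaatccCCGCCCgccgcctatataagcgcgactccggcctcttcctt
Tra2a, chr6:49264053-49264302, minus strand: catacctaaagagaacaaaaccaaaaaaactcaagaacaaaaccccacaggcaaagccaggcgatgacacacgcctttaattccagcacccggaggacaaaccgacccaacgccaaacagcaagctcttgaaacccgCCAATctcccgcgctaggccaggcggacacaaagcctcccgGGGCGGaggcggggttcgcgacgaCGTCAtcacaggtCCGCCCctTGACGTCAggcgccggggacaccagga
Sf3a1, chr11:4160104-4160353, plus strand: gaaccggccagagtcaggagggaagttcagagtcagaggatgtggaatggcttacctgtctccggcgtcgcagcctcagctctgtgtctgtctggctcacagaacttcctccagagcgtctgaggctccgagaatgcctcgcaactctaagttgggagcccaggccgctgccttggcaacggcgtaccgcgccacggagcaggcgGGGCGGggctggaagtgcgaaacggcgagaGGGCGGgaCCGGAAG

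Srsf1 held 1 GC box and 1 TGACG. Srsf3 held 2 TGACG matches, 1 CCAAT box and, as the one of the 5 regions that did, 1 TATAAA. Srsf7 held 3 GC boxes and 1 ETS core, and Tra2a 2 GC boxes, 1 CCAAT box and 3 TGACG matches, a pair of which overlap as the palindrome TGACGTCA. Sf3a1 held 2 GC boxes and 1 ETS core. RefSeq entries were found for 84 of the 96 members, with 127 start regions. TGACG was in 33.1% of them against 17.8% of all 32851 start regions in the table, the GC box in 55.1% against 32.7%, CCAAT in 45.7% against 33.8% and the ETS core in 16.5% against 6.91%. TATAAA (11.0% against 12.4%) and the E-box (7.09% against 6.02%) were about as frequent in the members as in all genes. The members' start regions were also richer in G and C (median 60.4% against 52.4%) and in CG pairs (18 against 6), and these shares were not adjusted for base composition. Among the 31 start regions of the 24 members that were lower at an unadjusted p under 0.05, 61.3% held the GC box, 48.4% CCAAT, 45.2% TGACG, 16.1% TATAAA, 9.68% the E-box and 6.45% the ETS core. A match is a description of the letters only.

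No member passed the test between genotypes (edgeR quasi-likelihood test with sex and genotype as terms, Benjamini-Hochberg adjusted p under 0.05), where 0.0198% of all tested genes did, or 3 genes. The members nevertheless lay mostly to one side. Of 95, 70 had a log2 fold change below 0, against 48.9% of all tested genes, and their median was -0.14 against 0.01. At an unadjusted p under 0.05, 24 members were lower (25.3%, against 6.46% of all genes) and 2 were higher, Elavl2 and Celf6, against 5.22% of all genes. Both heterozygotes lay below both wild types for 51 members (53.7%, against 22.6% of all genes) and above them for 7 (7.37%, against 22.1%). Of all counts, the members as a whole took 0.971% and 1.01% in the male and female heterozygotes, and 1.09% and 1.13% in the wild types of those sexes. In bulk tissue, fewer cells of a type and less RNA per cell cannot be told apart.

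The count of members called moved with the tool and with the wild type libraries. DESeq2 called 1 member, Srsf1, where it called 0.218% of all genes, and edgeR's likelihood ratio test 2, Srsf1 and Rbm25, where it called 1.10%, while limma-voom called 0. Without the male wild type 28 members were called (26 of them lower) in a fit that called 17.5% of all genes, and without the female wild type 14 were called (13 lower) where 4.30% of all genes were. Without either heterozygote the count was 0, and the members lower at an unadjusted p under 0.05 numbered 6 without the male heterozygote (6.25%, against 1.58% of all genes) and 10 without the female one (10.4%, against 3.11%).

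Of the groups of members compared in this paragraph, the SR and Tra2 genes had the lowest median, -0.32 over 13 genes. Among them 12 were below 0 (92.3%, against 48.9% of all genes). At an unadjusted p under 0.05, 7 were lower (53.8%, against 6.46% of all genes). The Hnrnp genes had a median of -0.13 over 20 genes, with 7 of the 20 lower at that p. The Rbm genes had a median of -0.15 over 33 genes, with 5 lower (15.2%), nearer to the share of all genes. The Sf3 subunits were near the middle of all genes, with a median of -0.01 over 9 genes and 1 lower (11.1%). The 20 neural regulators had a median of -0.14 with 4 lower and the 2 higher, where 5.22% of all genes were higher. Differences between families were not tested.

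**Figure D1:**
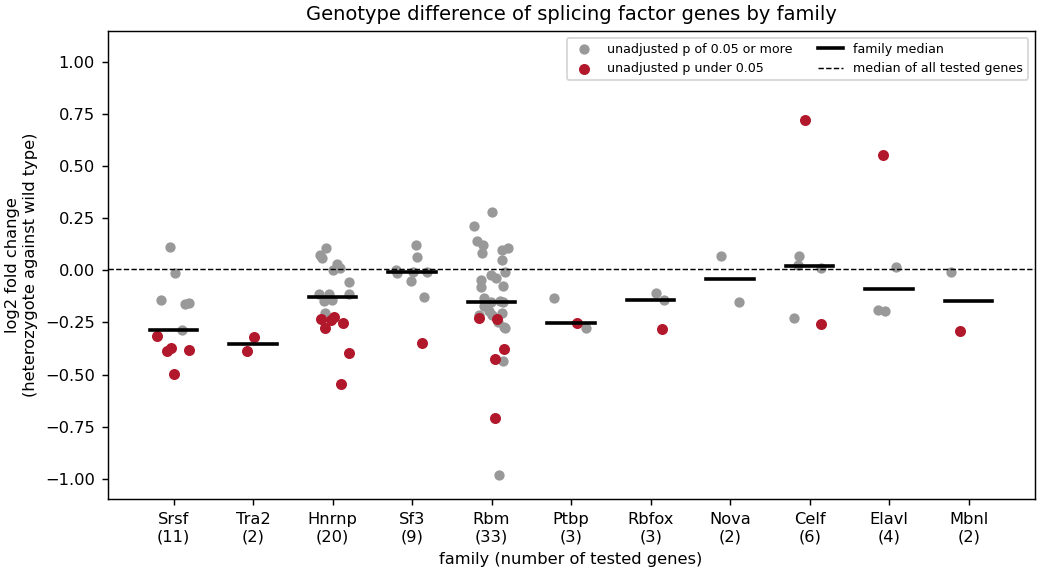
Each point is the fitted log2 fold change (heterozygote against wild type, vertical axis) of 1 of 95 genes, grouped by family along the horizontal axis, with short bars for family medians and a dashed line for the median of all tested genes. Red points, at an unadjusted p under 0.05, lie below 0 except for Celf6 at 0.72 and Elavl2 at 0.55.

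Srsf1, one of the first SR proteins described, which recruits the U1 particle to 5′ splice sites, had the smallest p of all members. It stood at 205 CPM in the male and 243 CPM in the female heterozygote, against 301 CPM in the male and 329 CPM in the female wild type. Both heterozygotes were clear of both wild types, and the females were above the males in each genotype. The means were 224 ± 26.9 CPM in heterozygotes and 315 ± 20.05 CPM in wild types (SD over 2 libraries), and the fitted log2 fold change was -0.50 ± 0.10 (edgeR quasi-likelihood test, Benjamini-Hochberg adjusted p = 0.144). Leaving out each library in turn gave -0.63 to -0.37.

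Srsf7, a shuttling SR protein with a zinc knuckle, was at 83.6 and 83.5 CPM in the male and female heterozygotes and at 110 and 108 CPM in the wild types of the same sexes. The libraries of a genotype nearly coincided, and the genotypes were apart by much more than that (log2 fold change -0.39 ± 0.10, edgeR adjusted p = 0.207). Srsf3, the smallest SR protein, was at 94.8 CPM in the male and 87.3 CPM in the female heterozygote against 118 and 119 CPM in the male and female wild types (-0.38 ± 0.10). Srsf6 was at 132 and 142 CPM in the male and female heterozygotes against 175 and 180 CPM in the wild types (-0.37 ± 0.10). For both genes the heterozygotes lay below the wild types without overlap, and their adjusted p was 0.207 as well.

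The Tra2 proteins bind GAA-rich exonic enhancers together with SR proteins. Tra2a was at 64.7 CPM in the male and 69.7 CPM in the female heterozygote, and at 83.8 and 92.3 CPM in the male and female wild types (log2 fold change -0.39 ± 0.11, edgeR adjusted p = 0.207). Tra2b was at 43.8 CPM in each heterozygote against 58.6 CPM in the male and 51.1 CPM in the female wild type (-0.32 ± 0.13, adjusted p = 0.351). Both genes had their genotypes apart in all 4 libraries, with the male difference the larger for Tra2b. Srsf10, a splicing repressor when dephosphorylated, was at 45.5 and 51.1 CPM in the male and female heterozygotes against 59.7 and 60.5 CPM (-0.32 ± 0.12, adjusted p = 0.343).

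The difference was smaller or less certain in the other SR genes. Srsf11 was at 108 and 119 CPM in the male and female heterozygotes against 128 and 126 CPM in the wild types, without overlap (-0.16 ± 0.10, and -0.09 without the male heterozygote). Srsf5, the SR gene with the highest count per kilobase of transcript, overlapped between genotypes at 256 and 284 CPM against 269 and 330 CPM (log2 fold change -0.14 ± 0.10), and without the female wild type its value was 0.00. Srsf2 (131 and 145 CPM against 138 and 171 CPM) overlapped too, at -0.16 ± 0.10, and was also at 0.00 without that library. Srsf9 was near 38 CPM in 3 libraries and at 57.6 CPM in the female wild type alone, so its -0.29 ± 0.16 went to 0.01 without that library. Srsf4 was level at -0.01 ± 0.17, and Srsf12, an antagonist of other SR proteins, had the only value above 0 in the family (0.11 ± 0.16), with both heterozygotes (17.9 and 17.2 CPM) just above both wild types (16.2 and 16.3 CPM).

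**Figure D2:**
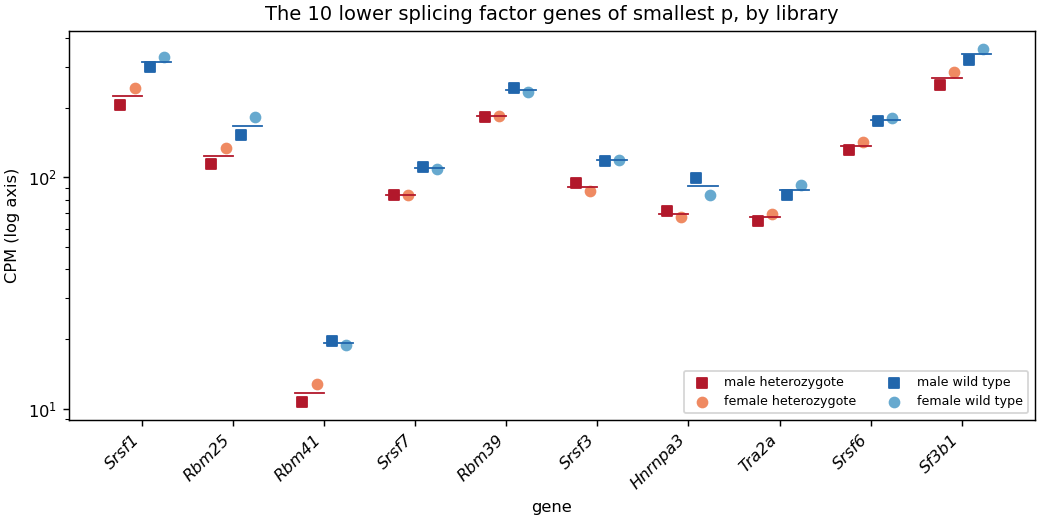
CPM (vertical log axis) of the 10 lower members of smallest p (horizontal axis) in each library, with squares for males, circles for females, reds for heterozygotes and blues for wild types, and short lines at the genotype means. For each of the 10 genes both heterozygotes lie below both wild types, as for Srsf1 at 205 and 243 CPM against 301 and 329 CPM.

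The genes listed with the SR proteins as partners and kinases lay on the same side. Of 26 SR-related genes and SR protein kinases 22 were below 0 (84.6%, against 48.9% of all genes), with a median of -0.19. At an unadjusted p under 0.05, 10 were lower (38.5%, against 6.46% of all genes). Luc7l2, a U1-associated protein, was at 153 and 158 CPM in the male and female heterozygotes against 215 and 216 CPM in the wild types (-0.47 ± 0.10, edgeR adjusted p = 0.156). Clk1 and Clk4, kinases that phosphorylate SR proteins, were at -0.47 ± 0.11 and -0.44 ± 0.11 (each at -0.27 without the female wild type), and Tial1, which helps U1 bind weak 5′ splice sites, at -0.37 ± 0.10. In each of these 4 genes both heterozygotes were below both wild types.

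Among the Hnrnp genes, Hnrnpa3 had the smallest p. It was at 71.2 CPM in the male and 67.6 CPM in the female heterozygote, and at 99.2 and 84.2 CPM in the male and female wild types, without overlap (log2 fold change -0.40 ± 0.11, edgeR adjusted p = 0.207). Hnrnpu, which binds chromatin-associated RNA, was at 343 and 377 CPM in the male and female heterozygotes against 419 and 440 CPM (-0.25 ± 0.10, adjusted p = 0.368). Hnrnpa2b1, which binds transport signals in dendritic and myelin transcripts, was at 444 and 424 CPM against 483 and 541 CPM (-0.23 ± 0.11, adjusted p = 0.426), or -0.15 with the female wild type left out. The heterozygotes of both genes lay below the wild types, and the difference was the larger in males for Hnrnpu and in females for Hnrnpa2b1.

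The other Hnrnp genes lower at an unadjusted p under 0.05 were Hnrnph1 (-0.24 ± 0.10), Hnrnpm (-0.28 ± 0.10, and -0.17 without the female wild type), Hnrnpd (-0.22 ± 0.10, and -0.14 without the male wild type) and Hnrnpa1 (-0.54 ± 0.21). Hnrnpa1, one of the most abundant nuclear proteins, was counted at only 7.65 to 11.98 CPM, and the gene has many near-identical processed copies that can share its reads, so its value is uncertain. Hnrnpk (0.06 ± 0.10), Hnrnpul1 (0.00 ± 0.10) and Hnrnpr (0.01 ± 0.11) had values near 0 with overlapping libraries, and Hnrnpk turned to -0.04 without the female wild type. Hnrnpk and Hnrnpab, like Srsf4, Sf3b3 and Rbm3, have an annotated gene on the opposite strand, and Hnrnpm shares bases with March2 on its own strand. Whether reads were counted by strand is not stated, so reads of such pairs could be mixed.

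The Sf3 subunits build the SF3a and SF3b modules of the U2 particle and are needed for nearly every intron. Sf3b1, the large subunit that grips the branch point, was the exception among them, at 250 CPM in the male and 285 CPM in the female heterozygote against 322 and 359 CPM in the male and female wild types (log2 fold change -0.35 ± 0.10, edgeR adjusted p = 0.223). Sf3b2 (328 and 313 CPM in the male and female heterozygotes, 325 and 339 CPM in the wild types) overlapped between genotypes, at -0.05 ± 0.10. Sf3b3 was at -0.13 ± 0.10, and Sf3a1 at 0.00 ± 0.10. The 4 libraries of Sf3a1 spanned only 89.8 to 93.7 CPM.

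The core of the spliceosome had a median close to that of all genes. Of 34 core snRNP and tri-snRNP genes 22 were below 0 (64.7%, against 48.9% of all genes), with a median of -0.02. At an unadjusted p under 0.05, 1 was lower (2.94%, against 6.46% of all genes) and 1 higher (2.94%, against 5.22%). The lower one was Snrnp70, the U1 protein (-0.34 ± 0.12, edgeR adjusted p = 0.312), which was at 376 CPM in the female wild type and between 239.5 and 262 CPM in the other 3 libraries, and whose value was -0.08 without that library and -0.60 without the male wild type. The higher one was Snrpn, an imprinted neuronal Sm protein, at 5.47 and 4.20 CPM in the male and female heterozygotes against 2.67 and 1.70 CPM (1.16 ± 0.31, adjusted p = 0.206). Of 9 genes for the 3′ splice site and branch point 7 were below 0 with a median of -0.06. The one lower at that p (11.1%, against 6.46% of all genes) was Sf1, the branch point binding protein (-0.25 ± 0.10).

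The Rbm genes share a domain and not a function. Rbm25, which activates 5′ splice sites through U1, was at 114 CPM in the male and 134 CPM in the female heterozygote against 152 and 183 CPM in the male and female wild types (log2 fold change -0.42 ± 0.10, edgeR adjusted p = 0.171). Rbm39, a relative of U2AF, was at 182 and 184 CPM against 244 and 234 CPM (-0.38 ± 0.10, adjusted p = 0.207). Rbm41, a component of the minor spliceosome, was the least abundant of the 10 lower members of smallest p in CPM, at 10.7 and 12.8 CPM against 19.5 and 18.9 CPM, and had the largest difference among those 10 (-0.71 ± 0.18, adjusted p = 0.189). For all 3 genes the heterozygotes were below the wild types in both sexes.

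Rbm5, an exon-skipping regulator of apoptosis genes, was at -0.23 ± 0.10 and Rbm33 at -0.24 ± 0.11 (-0.13 without the male heterozygote), each lower at an unadjusted p under 0.05. Rbm47 had the most negative value of all members, -0.98 ± 0.50, but rests on 0.627 to 1.46 CPM. Rbm3, the cold-shock protein, was level at -0.01 ± 0.10 and between 104 and 111 CPM in all libraries. Rbm11 (0.28 ± 0.26), Rbm48 (0.21 ± 0.21), Rbm45 (0.14 ± 0.14) and Rbm15b (0.11 ± 0.14) were the Rbm genes above 0 with the smallest p, and each is within about 1 standard error of no change. Rbm42 (0.08 ± 0.12) turned to -0.10 without the male wild type. Rbm48 has an annotated antisense neighbour and Rbm15b overlaps Manf on its own strand.

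Among the neural regulators, Rbfox3 (NeuN) was at 370 CPM in the male and 389 CPM in the female heterozygote against 420 and 508 CPM in the male and female wild types (log2 fold change -0.28 ± 0.10, edgeR adjusted p = 0.334). The heterozygotes were below the wild types, and the value was -0.15 without the female wild type. Its relatives, which bind the same element, had values nearer 0: Rbfox2 was at -0.14 ± 0.10 and Rbfox1 at -0.11 ± 0.11, with the female libraries of Rbfox1 at 262 CPM in the heterozygote and 263 CPM in the wild type.

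The Ptbp genes are repressors of neuronal exons, with Ptbp1 kept low in neurons and Ptbp2 expressed in their place. Ptbp2 was at 77.5 and 79.7 CPM in the male and female heterozygotes against 101 and 86.5 CPM in the wild types (log2 fold change -0.25 ± 0.11, edgeR adjusted p = 0.412, and -0.14 without the male wild type). Ptbp1 (-0.13 ± 0.13) and Ptbp3 (-0.28 ± 0.19) were also without overlap between the genotypes but had smaller or less certain differences. Ptbp1 has an annotated antisense neighbour. The Mbnl genes promote adult splicing patterns: Mbnl1 was at 73.0 and 76.2 CPM in the male and female heterozygotes against 94.4 and 88.2 CPM (-0.29 ± 0.11, adjusted p = 0.334), while Mbnl2 overlapped at -0.01 ± 0.11 and was at 0.08 after removal of each library's trend with length and GC content.

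The Nova proteins bind clustered short motifs in synaptic transcripts. Nova1 overlapped between genotypes (0.07 ± 0.12), with the heterozygote below the wild type in males (113 against 126 CPM) and above it in females (132 against 108 CPM). Nova2 was at 52.2 and 48.4 CPM in the male and female heterozygotes against 56.8 and 55.0 CPM (-0.15 ± 0.12). The Celf genes were divided. Celf1, a ubiquitous regulator opposed to Mbnl proteins, was at 135 and 159 CPM in the male and female heterozygotes against 179 and 171 CPM (-0.26 ± 0.11, edgeR adjusted p = 0.398, and -0.14 without the male heterozygote), and Celf2 was at -0.23 ± 0.11. The neuronal Celf3 (0.03 ± 0.11), Celf4 (0.01 ± 0.10) and Celf5 (0.07 ± 0.13) overlapped, and Celf3 and Celf4 were each at -0.03 with the length and GC trend removed.

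Celf6 and Elavl2 were the members that were higher at an unadjusted p under 0.05. Elavl2, a neuronal Hu protein that stabilises AU-rich transcripts, was at 65.8 CPM in the male and 61.1 CPM in the female heterozygote and at 56.9 CPM in the male wild type, with 32.6 CPM in the female wild type (log2 fold change 0.55 ± 0.17, edgeR adjusted p = 0.269). Celf6 was at 24.9 and 23.1 CPM in the male and female heterozygotes, 20.7 CPM in the male wild type and 9.99 CPM in the female wild type (0.72 ± 0.23, adjusted p = 0.289). In both genes 3 libraries were close together and the female wild type was far below them. Without that library the values were 0.16 for Elavl2 and 0.21 for Celf6, and without the male wild type 0.96 and 1.27. The summed level of 11 brainstem neuron markers, genes of aminergic, cholinergic and hindbrain neurons, was lowest in that same library: 281 CPM in the male heterozygote, 253 CPM in the female heterozygote, 208 CPM in the male wild type and 89.98 CPM in the female wild type. Of these 11 genes Slc6a3 had no count in the female wild type, 9 had a log2 fold change above 0, and 1 passed the adjusted threshold. At an unadjusted p under 0.05, 3 were higher (27.3%, against 5.22% of all genes) and 1 lower (9.09%, against 6.46%). The part of these cells in the 2 results was not tested.

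Of the other Hu genes, Elavl3 and Elavl1 lacked that pattern. Elavl3 was at 344 and 343 CPM in the male and female heterozygotes against 391 and 398 CPM in the wild types (-0.20 ± 0.10, edgeR adjusted p = 0.494). Elavl1, the ubiquitous member, was at -0.19 ± 0.11 with all libraries of a genotype within 2 CPM of each other, and has an annotated antisense neighbour. Elavl4 overlapped at 0.02 ± 0.12 and also had its lowest level in the female wild type, though less far below the rest. It was at 87.1 CPM there, against 96.5 and 102 CPM in the male and female heterozygotes and 111 CPM in the male wild type. Without the female wild type Elavl4 turned to -0.16.

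**Figure D3:**
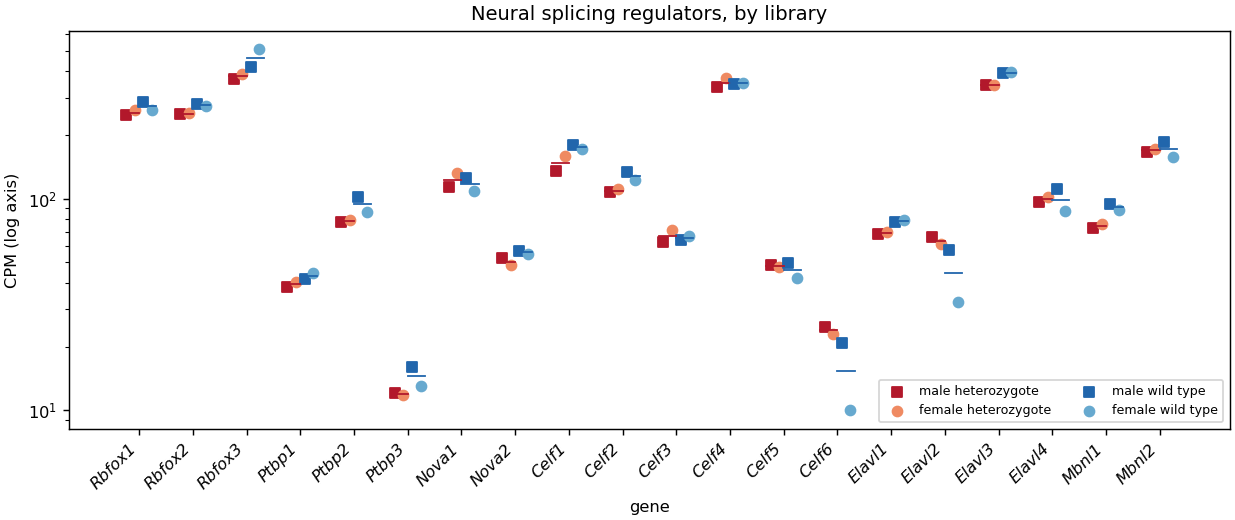
CPM (vertical log axis) of the 20 neural splicing regulators (horizontal axis) in each library, with squares for males, circles for females, reds for heterozygotes and blues for wild types, and short lines at the genotype means. The female wild type stands far below the other 3 libraries for Celf6 (9.99 CPM) and Elavl2 (32.6 CPM), and Celf4 lies within 336 to 371 CPM in all 4.

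On a scale that divides by transcript length (mean CPM per kilobase, with the median length of the annotated coding transcripts), Hnrnpa2b1 was the most abundant member at 287, followed by Srsf5 at 190 and Rbfox1 at 189. Rbfox3 was at 170 and Rbfox2 at 150 on that scale, and Celf4 at 134, while Ptbp1 was at 13.3 and Ptbp2 at 33.8. Lengths differ widely among the transcripts of these genes, so this order is approximate. The 24 members lower at an unadjusted p under 0.05 were spread over the range, from Hnrnpa2b1 itself to Rbm41 at 4.77 per kilobase.

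Markers of the cell types of the tissue also differed in level between the libraries. For comparison, 6.46% of all tested genes were lower and 5.22% higher at an unadjusted p under 0.05. All 15 granule cell markers were below 0, 13 of them lower at an unadjusted p under 0.05, with a median of -0.43, and their sum was 5074 CPM in the male and 5606 CPM in the female heterozygote against 6577 and 7561 CPM in the male and female wild types. All 15 Purkinje cell markers were below 0 too, with a median of -0.32 and 10 lower at that p, and sums of 5677 and 5380 CPM against 6300 and 7204 CPM. All 13 oligodendrocyte markers were above 0 (median 0.16, 3 higher at that p), with sums of 15464 and 14563 CPM in the male and female heterozygotes against 13240 and 13992 CPM. The SR and Tra2 genes summed to 1235 and 1340 CPM against 1511 and 1659 CPM, the same order of the 4 libraries as for the granule cell markers. That order was not particular to them, since the sums of the Hnrnp, Sf3, Rbm and SR-related genes had it as well. The sums of the neural regulators and of the core snRNP genes did not. Of the other lists, 13 of 13 endothelial and mural genes were below 0 (median -0.55), 8 of them lower at that p. Their median log2 ratio of heterozygote to wild type was -0.13 in males and -0.91 in females. Their sums were 228 and 194 CPM in the male and female heterozygotes and 258 and 382 CPM in the wild types. Choroid plexus genes were above 0 for 9 of 10, with 4 higher at that p (2697 and 1556 CPM against 1476 and 1466 CPM). Microglia genes were above 0 for 10 of 10, but 0 reached an unadjusted p under 0.05 and 2 were higher in both sexes. The microglia sums were 230 and 159 CPM in the male and female heterozygotes against 166 and 181 CPM, higher in males and lower in females. Astrocyte genes were below 0 for 7 of 11, with 0 at that p (3444 and 3326 CPM against 3430 and 3982 CPM). Of 10 cerebellar interneuron genes 6 were above 0, with 3 higher and 1 lower at an unadjusted p under 0.05 and 1 past the adjusted threshold, and their sums overlapped (1510 and 1361 CPM against 1334 and 1585 CPM). No marker of these lists was at 0 in any library. The part of these cell types in the members' values was not tested.

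RNAs kept in the nucleus also lay mostly below 0, though their summed level differed mainly in males. Of 8 such long non-coding RNAs 7 were below 0 (median -0.21) and 5 were lower in both sexes. The sums of the list were 4759 and 5555 CPM in the male and female heterozygotes against 6761 and 5778 CPM in the wild types. At an unadjusted p under 0.05, 3 were lower (37.5%, against 6.46% of all genes). These 3 were Malat1, located in the nuclear speckles where SR proteins gather (-0.69 ± 0.12, edgeR adjusted p = 0.130), Kcnq1ot1 (-0.91 ± 0.20) and Snhg11 (-0.44 ± 0.10). Malat1 was at 211 CPM in the male and 355 CPM in the female heterozygote against 397 and 493 CPM in the male and female wild types. Its value was -0.32 without the male and -1.09 without the female heterozygote, and it was called by DESeq2 (adjusted p = 0.00250) and by edgeR's likelihood ratio test (adjusted p = 0.000478). Rn45s, the ribosomal RNA entry of the count table and not one of those 8 RNAs, took 0.183% and 0.226% of counts in the male and female heterozygotes. In the male and female wild types it took 0.242% and 0.323%. The part of these RNAs in the members' values was not tested. Of the paraspeckle proteins, Sfpq was at -0.36 ± 0.10, while Nono (0.05 ± 0.10) and Pspc1 (0.03 ± 0.13) overlapped between genotypes.

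Among 35 tested genes for other RNA-binding proteins 23 were below 0 (median -0.09). At an unadjusted p under 0.05, 8 were lower (22.9%, against 6.46% of all genes) and 1 higher (2.86%, against 5.22%). The lower ones included Ddx5, an RNA helicase of the splicing and microRNA machinery (985 and 1069 CPM in the male and female heterozygotes, 1267 and 1371 CPM in the wild types, -0.36 ± 0.10, edgeR adjusted p = 0.209), and Tardbp, which encodes TDP-43 and represses cryptic exons (-0.32 ± 0.10). Cpeb4, a translational regulator, was at -0.36 ± 0.11. The higher one was Khdrbs3, a neuronal STAR protein that controls neurexin splicing, at 49.8 and 38.4 CPM in the male and female heterozygotes against 33.0 and 31.4 CPM (0.45 ± 0.14, adjusted p = 0.249, and 0.26 without the male heterozygote).

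**Figure D4:**
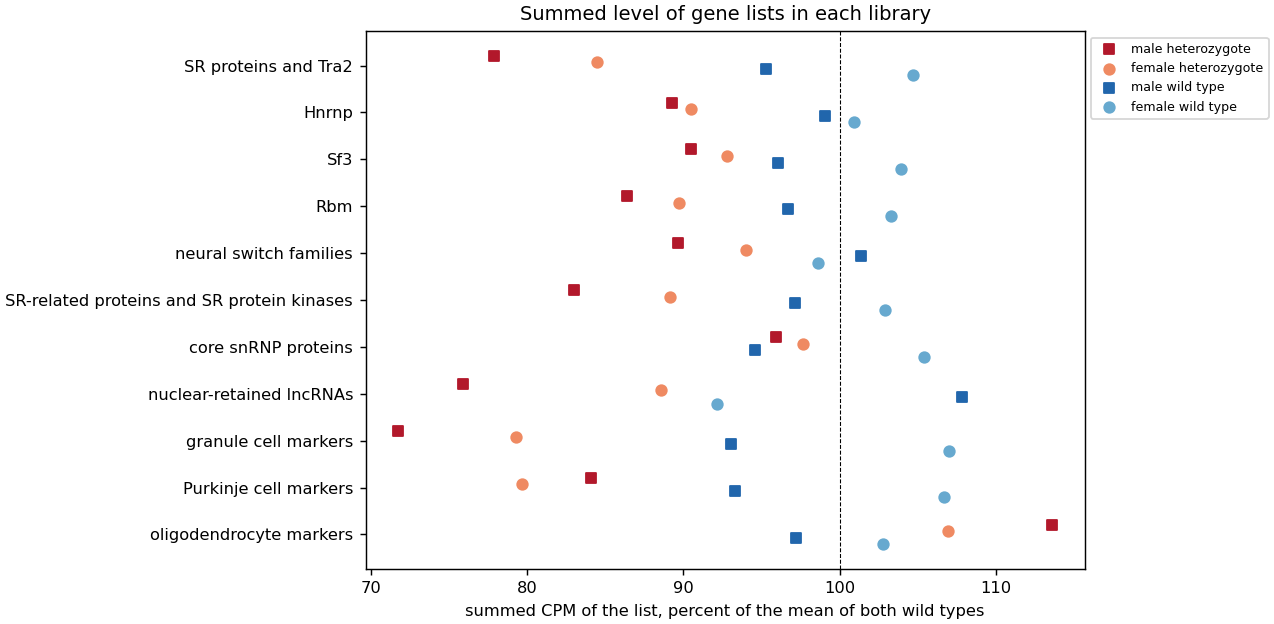
Summed CPM of each gene list in each library, as a percent of the mean of both wild types (horizontal axis), with 1 row per list, squares for males, circles for females, reds for heterozygotes and blues for wild types. The SR and Tra2 genes were at 77.9% and 84.5% in the male and female heterozygotes, the granule cell markers at 71.8% and 79.3%, and the oligodendrocyte markers at 114% and 107%.

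Annotation divides the members by transcript type, and the difference between the classes was not tested. A transcript marked for nonsense-mediated decay (GENCODE M21) was annotated for 40 of the 95 tested members (42.1%, against 26.1% of tested genes with an annotation), including 11 of the 13 SR and Tra2 genes and 0 of the 3 Rbfox and 4 Elavl genes. Members with such a transcript had a median log2 fold change of -0.21, and 37.5% of them were lower at an unadjusted p under 0.05. The other 55 members had a median of -0.11, and 16.4% were lower. Over all tested genes the same medians were -0.02 and 0.01, with 7.90% and 5.94% lower. The members' transcripts had a median GC content of 46.0% against 50.4% for all tested genes.

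Within each sex the ratio of 1 heterozygote to 1 wild type library (log2, with a prior count of 2) has no replicate. The median ratio of the members was -0.12 in males and -0.17 in females, and 55 members were lower in the heterozygote of both sexes and 9 higher in both, where 29.3% and 29.1% of all genes were. Whether the genotype difference itself differed by sex was tested, and 0 members passed (edgeR quasi-likelihood test of the product of genotype and sex, Benjamini-Hochberg adjusted p under 0.05), where 0.0198% of all genes did. DESeq2 called 0 members as well. At an unadjusted p under 0.05 there was 1 member, where 3.55% of all genes were: Sf3b5, a small SF3b subunit, was at 35.9 CPM in the male heterozygote and 24.7 CPM in the male wild type, and at 32.7 and 39.9 CPM in the females (difference of log2 ratios, female minus male, -0.82 ± 0.32, adjusted p = 0.998). The next were Nova1 (0.45 ± 0.22), Rbm20 (1.02 ± 0.53), Srsf9 (-0.60 ± 0.32) and Elavl4 (0.42 ± 0.23).

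**Figure D5:**
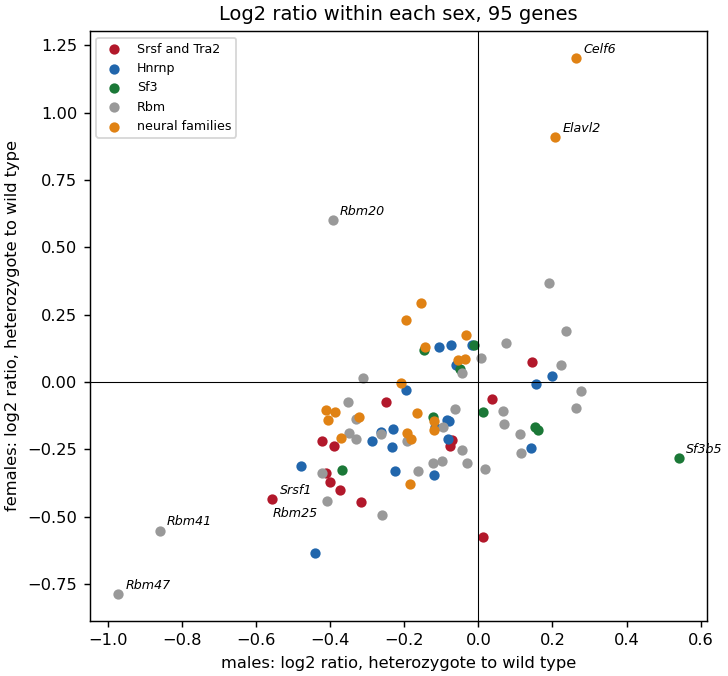
Log2 ratio of heterozygote to wild type in males (horizontal axis) and in females (vertical axis), 1 point per gene for 95 genes, coloured by family. The lower left field, lower in both sexes, holds 55 genes, Celf6 and Elavl2 at the upper right are higher mainly in females, and Sf3b5 lies at 0.54 in males and -0.28 in females.

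Between females and males 0 members passed the test (edgeR quasi-likelihood test, Benjamini-Hochberg adjusted p under 0.05), where 0.0595% of all genes did, and DESeq2 and limma-voom called 0 members as well. At an unadjusted p under 0.05 there were 4 members, of 95, where 3.82% of all genes were. Rbm25 (log2 fold change, female minus male, 0.25 ± 0.10) and Srsf2 (0.23 ± 0.10) were higher in females, where 1.75% of all genes were, and Elavl2 (-0.45 ± 0.17) and Celf6 (-0.56 ± 0.23) were lower, where 2.08% were. Srsf5 followed at 0.22 ± 0.10. For Elavl2 and Celf6 the female wild type was the low library, as given above, and without the female heterozygote 3 members (3.13%) were called between the sexes, Elavl2, Srsf9 and Celf6, where 3.92% of all genes were.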

How the data were processed

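Poly(A) RNA of cerebella, 1 library per genotype and sex, was made into stranded libraries and read from one end over 100 bases (labels' protocols). The values used are the raw counts per gene symbol that the authors deposited. The submitters' processing notes list STAR, featureCounts, FastQC, edgeR and the build mm9 with no version or role, and no source states the strand setting.

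The members, lists and tests were chosen with earlier results of these data known. Groups came from the labels. The test was edgeR 4.0.16 (R 4.3.3), a robust quasi-likelihood fit on the counts as deposited, with sex and genotype as terms, TMM factors of 0.999 to 1.00, filterByExpr by genotype (15117 of 24015 genes, 99.9% of counts), 1 residual degree of freedom (prior degrees of freedom over genes, median 10.6), two-sided, Benjamini-Hochberg over all tested genes at 0.05. The product of genotype and sex was tested beside genotype, with no sex term. The standard error is the log2 fold change divided by the square root of F. With 3 counts as the floor, a gene without a count could lie at up to 0.146 to 0.188 CPM, counting error only. Genes named were Arid1b, the 10 members of smallest p in each direction, all members of the Rbfox, Nova, Elavl, Celf, Mbnl, Ptbp and Tra2 families, the 3 most abundant Srsf, Hnrnp, Rbm and Sf3 genes, the 5 of smallest p for sex and for the product, members around the count minimum and up to 4 genes per pathway list. Srsf4, Srsf10, Srsf11, Hnrnph1, Hnrnpm, Hnrnpd, Hnrnpa1, Hnrnpul1, Hnrnpr, Sf3a1, Rbm3, Rbm33 and Rbm47 were added after their values were seen. Alternatives were the likelihood ratio test of edgeR, DESeq2 1.42.0, limma-voom (limma 3.58.1), other scalings, other filters, no sex term, an adjusted p of 0.1 and leaving out each library, and, chosen after seeing the data, removal of each library's trend with length and GC content. Scripts were tested on simulated data.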

Additional observations from a re-analysis of the deposited data

How the results depend on the processing

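Counts of members called, which was 0, became 1 with DESeq2, 2 with edgeR's likelihood ratio test, 11 without a low-count filter (9 lower, of 553 genes called in all) and 6 with the trend of the longest transcript's length and GC content removed (5 lower, of 256 genes), but 0 with the median coding transcript in its place. Leaving out each library gave 0 to 28, with 28 without the male and 14 without the female wild type. Members lower at an unadjusted p under 0.05 numbered 13 with DESeq2 and 6 to 35 with a library left out, and those higher numbered 0 without a sex term and 0 to 2 with a library left out. Members called between the sexes numbered 0 to 3, the 3 without the female heterozygote. With DESeq2 fewer genes of any kind were lower at that p: 13.7% of members against 2.59% of all genes. In the main fit these shares were 25.3% and 6.46%. The median log2 fold change of the members lay at -0.17 to -0.10 with a library left out, at -0.10 without the female wild type, and between -0.15 and -0.14 under the other alternatives. In the fits with a library left out, genotype or sex is the only term, and the lone library of a group is assumed to vary like the others. That lone library is of a single sex and genotype, so the 2 are partly mixed in those fits. The share of all genes called or lower moved between those fits as well, so their counts of members cannot be compared with the main counts. Under the other alternatives run, scalings included, these counts stayed within 1.5 times.

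Of the 86 named genes, 18 changed sign under some alternative. With the length and GC trend removed (longest, then median coding transcript) Celf3 was at -0.0310 and -0.0332, Celf4 at -0.0308 and -0.0309, Mbnl2 at 0.0806 and 0.0825, Hnrnpul1 at -0.0532 and -0.0569, Rbm3 at 0.0646 and 0.0843 and Sf3a1 at -0.0396 and -0.0345. Sf3a1, whose value was 0.00, was also at -0.000696 with DESeq2, -0.000710 with its size factors, -0.00191 with library totals and -0.000826 without a filter, and Hnrnpul1 at -0.000119 with library totals. With a library left out the ranges were -0.078 to 0.12 for Celf3, -0.068 to 0.085 for Celf4, -0.048 to 0.18 for Celf5, -0.16 to 0.19 for Elavl4, -0.043 to 0.16 for Hnrnpk, -0.081 to 0.098 for Hnrnpr, -0.036 to 0.034 for Hnrnpul1, -0.12 to 0.11 for Mbnl2, -0.059 to 0.18 for Nova1, -0.0061 to 0.064 for Pspc1, -0.22 to 0.44 for Rbm20, -0.062 to 0.046 for Rbm3, -0.10 to 0.27 for Rbm42, -0.21 to 0.48 for Sf3b5, -0.034 to 0.030 for Sf3a1, -0.10 to 0.067 for Srsf4, -0.29 to 0.0026 for Srsf5 and -0.58 to 0.013 for Srsf9. The cause was not tested. The labels name no pairs of animals, so no pairing was used beyond the sex term, by which genotypes are compared within each sex. With 2 libraries per genotype and 1 residual degree of freedom, the moderated spread rests mainly on other genes.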
